A study of Saccharomyces cerevisiae with 14 samples.

Results

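RNA from 4 long-lived mutants of budding yeast, taken as 1 group, was compared with RNA from wild-type (WT) cells, to describe which transcripts differed from WT in the same direction in every mutant. The mutants were MSB3Δ, lacking a GTPase-activating protein for Rab proteins of vesicle traffic, NIT3Δ, lacking a putative hydrolase of the nitrilase family, HSP26Δ, lacking a small heat shock chaperone, and TYS1 DAmP, with a lowered level of the mRNA for the essential tyrosyl-tRNA synthetase. In the deletions a KanR or HisMX6 cassette replaced the open reading frame, and in TYS1 DAmP a KanR cassette directly after the open reading frame lowers the transcript. Each mutant had 3 libraries and WT had 2, so the comparison used all 14 libraries of the series, 12 from mutants and 2 from WT. Every strain was grown to log phase in YPD medium with 2% glucose, 2% peptone and 1% yeast extract, and none was treated further. The study's methods give the parent strain as BY4741, a MATa strain with deletions at HIS3, LEU2, MET15 (MET17) and URA3, while the labels name the cells S288C, from which BY4741 descends. The WT strain carried neither cassette. The labels call the replicates biological but do not say that they came from separate cultures or clones, so the p-values below measure only the spread between these libraries.

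Expression was deposited as FPKM (fragments scaled by transcript length and by the size of the library) for 5886 genes. A gene entered the comparison when its mean over the 14 libraries was at least 1 FPKM, which kept 5727 genes, from YBL111C at 1.02 FPKM upward, with YAL065C at 0.994 FPKM just outside. For each gene the 4 strain means of log2(FPKM + 1) were given equal weight and their average was set against the WT mean, which is called the pooled log2 change below. This scale understates the change of low genes. The number of the 12 mutant libraries above the higher WT library, or below the lower, was counted beside it. Many genes named below were chosen by this count, so their lack of overlap with WT follows from the choice.

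In yeast, the genes for ribosomal proteins and for the nucleolar factors that assemble ribosomes are strongly transcribed in growing cells under the control of the TOR and protein kinase A pathways. The same kinases hold down genes for storage carbohydrates and stress defence, many of which are activated by the transcription factors Msn2 and Msn4 when growth slows. Fewer ribosomes and greater stress resistance are both known from long-lived yeast mutants.

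The libraries were first examined for their labels and quality. Each targeted gene was lowest in its own strain, at 0 to 0.02 FPKM for MSB3 in MSB3Δ, 0 to 0.28 for NIT3 in NIT3Δ, 0.08 to 0.15 for HSP26 in HSP26Δ and 66.2 to 82.5 for TYS1 in TYS1 DAmP, while in WT MSB3 averaged 18.0 FPKM, NIT3 was at 270 and 271, HSP26 at 77.5 and 94.5 and TYS1 at 512 and 563. MET17 was at 0 to 0.03 FPKM in the mutants and at 0 in both WT libraries, and the MATalpha-specific pheromone gene MF(ALPHA)1 was at 0 to 2.13 FPKM in the mutants, against 0.80 and 0.51 in WT. HIS3, of which BY4741 keeps a part, was at 122 to 231 FPKM in the mutants, against 138 and 146 in WT. LEU2 and URA3 were not analysed here. Relative depth, inferred from the smallest increments of FPKM in short genes, ran from 0.881 to 1.08 of the median library. Ribosomal protein genes took 18.1% of the FPKM sum in NIT3Δ replicate 2, 30.1% in MSB3Δ replicate 1 and 38.6% to 46.0% in the other 10 mutant libraries, against 48.4% and 47.0% in WT. Those 2 mutant libraries stood apart from the others, and some of the counts below, though not those of every list, are also given without them. A gene list of 7 stationary-phase markers summed to 98.9 to 457 FPKM in the other 10 mutant libraries, 612 in MSB3Δ replicate 1 and 1849 in NIT3Δ replicate 2, against 96.3 and 94.6 in WT. Single genes weighed heavily in these sums, with SPG4 at 1277 FPKM in NIT3Δ replicate 2 and SNZ1 at 275 in TYS1 DAmP replicate 1. The sum was above both WT libraries in 12 of 12 mutant libraries, but no single marker of the 7 was. Relative to all genes, the median log2 difference of the 7 was above both WT libraries in 10 of 12 mutant libraries. It was below both in 1, HSP26Δ replicate 3, at −0.08. None of the 7 markers was at 0 in any library, and the part of this difference in the results below was not tested. In bulk RNA, fewer cells of a type and less RNA per cell cannot be told apart.

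As deposited, genes above WT in all the mutants together outnumbered those below it. Single libraries differed, with 4337 genes above both WT libraries and 1124 below in NIT3Δ replicate 2. In MSB3Δ replicate 3 the counts were 2228 and 2235, and in TYS1 DAmP replicate 3 they were 1643 and 2891. All 12 mutant libraries exceeded both WT libraries for 450 genes, 7.86% of the 5727, and lay under both for 159 genes, 2.78%. The 4 strain means were all above the WT mean for 2519 genes (44.0%) and all below it for 794 (13.9%). This split depended on how libraries were scaled, since the median pooled log2 change of all genes was 0.16 as deposited and 0.00 after median-ratio scaling, which divides each library by 1 factor. After scaling, 241 genes (4.21%) were above in 12 of 12 libraries and 348 (6.08%) below, and 1413 genes had 4 strain means above WT against 1579 below. Of the 450 genes above, 222 (49.3%) remained above after scaling and made up 92.1% of the 241. Of the 159 genes below, 149 (93.7%) remained below and made up 42.8% of the 348. Without NIT3Δ replicate 2 and MSB3Δ replicate 1, all 10 remaining mutant libraries were above both WT libraries for 461 genes and below them for 187. The counts were 766 above and 283 below without WT replicate 1, and 946 and 285 without WT replicate 2. Leaving out mutant or WT libraries loosens the rule, so these counts could only stay or rise for genes still tested. They do not show how far the result rested on the libraries left out. WT had only 2 libraries and all 4 comparisons share them, so a feature of the mutants and a feature of these WT cultures cannot be told apart.

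**Figure D1:**
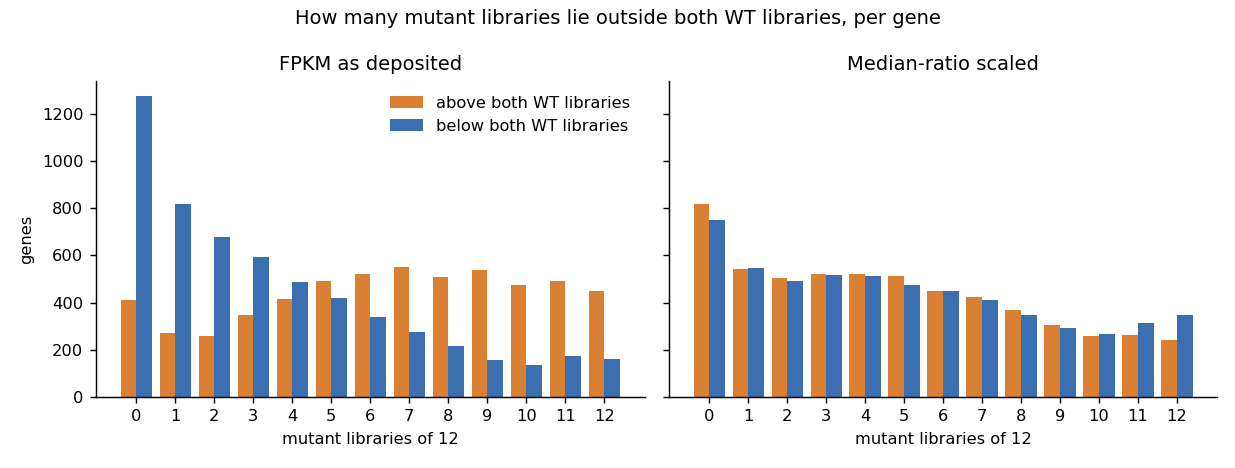
Number of genes (vertical axis) by how many of the 12 mutant libraries lay above both WT libraries (orange) or below both (blue), from FPKM as deposited (left) and after median-ratio scaling (right). As deposited, 450 genes were above and 159 below in all 12 libraries, and after scaling 241 were above and 348 below.

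Single genes seldom passed a test against this spread. With limma on log2(FPKM + 1) and a Benjamini-Hochberg adjusted p under 0.05 over the 5727 genes, 1 gene rose (0.0175%) and 1 fell (0.0175%), while the unadjusted p was under 0.05 for 282 higher and 51 lower genes. The gene that fell was NIT3, with a pooled log2 change of −2.08 and an adjusted p of 1.18e-05 in limma. This average holds its own deletion, and the other strains, MSB3Δ, HSP26Δ and TYS1 DAmP, had changes of −0.02, −0.28 and −0.09. The study used a fold over 1.5 or under 0.7 and a p under 0.05 for each mutant, in its own analysis. The same cut-offs on the pooled change, with the unadjusted p of limma, gave 191 higher and 34 lower genes. These counts cannot be set against those of the study.

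The gene that rose was YLL066C, annotated as a helicase encoded by a subtelomeric Y′ element on chromosome XII. It was at 8.71 FPKM in the lowest, 13.9 in the median and 37.3 in the highest mutant library, against 0.95 and 2.01 FPKM in WT. The groups did not overlap, the pooled log2 change was 2.76 ± 0.38 (SE) and the adjusted p of limma was 0.0173. By strain the change was 3.00 for NIT3Δ, 2.99 for MSB3Δ, 2.60 for TYS1 DAmP and 2.46 for HSP26Δ, each against the same 2 WT libraries. Leaving out WT replicate 1 gave an adjusted p of 0.970 in limma and leaving out WT replicate 2 gave 0.204, and it was 0.0674, 0.0618 and 0.0732 without MSB3Δ, HSP26Δ and TYS1 DAmP. Y′ elements are repeated at many chromosome ends, so its reads could fall on several copies and its level is uncertain. Of 15 tested genes that the annotation places in Y′ elements, it was the 1 gene above in 12 of 12 libraries, as were 7.86% of all genes. The family had a median pooled log2 change of 0.33 with a range from −1.69 to 2.76.

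Among the genes below WT in every library, many act in ribosome assembly. CGR1, whose product is needed in the nucleolus for processing of the rRNA of the large subunit, was at 108 FPKM in the lowest, 216 in the median and 259 in the highest mutant library, against 405 and 440 FPKM in WT. The groups did not overlap, and the highest mutant library was NIT3Δ replicate 1. The study had already named CGR1 from these same libraries as lower in all 4 mutants. The strain means averaged 207 ± 1.69 FPKM (SD, n = 4 strains), against 422 ± 24.9 in WT (SD, n = 2 libraries). These SDs are not comparable, since the first is between means of 3 libraries and the second between single libraries. Between the libraries of 1 strain, the SD was smallest for MSB3Δ at 18.0 FPKM and largest for NIT3Δ at 85.2 (n = 3 each). The pooled log2 change of CGR1 was −1.06 ± 0.28 (SE) with an unadjusted p of 0.00237 and an adjusted p of 0.663 in limma. FYV7, which acts in processing of the small-subunit rRNA, was at 74.8, 110 and 128 FPKM in the lowest, median and highest mutant library, against 228 and 184 FPKM in WT. Its change of −0.98 ± 0.21 (SE) had the smallest p among the genes below in 12 of 12 libraries, with an adjusted p of 0.424 in limma. CGR1 and FYV7 also had the widest gaps between mutants and WT among these genes, at −0.64 and −0.53 on the log2 scale from the highest mutant library to the lower WT library.

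The promoters of both genes are shown because the assembly genes as a group share short sequence motifs that the comparison did not use. The windows are the 250 bases before the start codon, read 5′ to 3′ on the gene's strand from the RefSeq R64 genome, at chrVII:439813-440062 (plus strand) for CGR1 and chrXII:270758-271007 (plus strand) for FYV7. Capitals mark matches to the PAC motif (GATGAG on either strand, so CTCATC on the strand shown) and the RRPE motif (AAAATTTT), both known from promoters of ribosome assembly genes.
CGR1: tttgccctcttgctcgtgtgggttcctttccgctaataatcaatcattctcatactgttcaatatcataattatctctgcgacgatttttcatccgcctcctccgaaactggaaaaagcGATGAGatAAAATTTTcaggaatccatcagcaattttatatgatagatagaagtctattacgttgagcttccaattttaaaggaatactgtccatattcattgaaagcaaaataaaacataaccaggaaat
FYV7: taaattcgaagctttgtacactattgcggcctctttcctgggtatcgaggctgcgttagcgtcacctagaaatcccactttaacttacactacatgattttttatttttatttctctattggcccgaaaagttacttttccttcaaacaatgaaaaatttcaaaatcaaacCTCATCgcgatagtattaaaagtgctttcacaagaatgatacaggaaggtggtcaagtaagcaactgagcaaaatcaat
In CGR1 the PAC match starts 131 bases before the start codon and the RRPE match 123 bases before it, with 2 bases between them. In FYV7 a PAC match starts 79 bases before the start codon, and these RRPE letters are not in the window.

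Assembly factors of the large subunit lay below WT. Of 75 assembly factors of the large subunit, 31 were below in 12 of 12 libraries and 0 above. The shares of all genes tested were 2.78% and 7.86%. For 72 the 4 strain means were below WT (13.9% of all genes). The median pooled log2 change of the list was −0.41, against 0.16 for all genes. After median-ratio scaling 52 were below in 12 of 12 (6.08% of all genes). Without the 2 libraries low in ribosomal protein RNA the median was −0.31, and 32 were below in all 10 remaining libraries. NOP7, a scaffold of early large-subunit particles, was at 72.2, 213 and 268 FPKM in the lowest, median and highest mutant library, against 297 and 312 FPKM in WT, a log2 change of −0.64 ± 0.34 (SE). DBP2, a DEAD-box RNA helicase, was at 45.4 to 248 FPKM in the mutants, against 309 and 319 in WT. NOP13, a nucleolar RNA-binding protein, was at 58.0 to 149 FPKM in the mutants, against 186 and 170 in WT. NIT3Δ replicate 2 held the lowest value of NOP7 and DBP2 and TYS1 DAmP replicate 1 that of NOP13. No mutant library reached WT, which the choice of list members by libraries outside WT favoured. BRX1, a large-subunit assembly factor named here after its values were seen, had a log2 change of −0.64 ± 0.34 (SE). No member of the list passed the adjusted test in limma, where 7 had an unadjusted p under 0.05, each of them lower.

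Factors of the small subunit lay below WT too. Of 70 factors of the small-subunit processome and of 40S maturation, 28 were below in 12 of 12 libraries and 0 above, 65 had 4 strain means below WT and the median log2 change was −0.37. After scaling 41 were below in 12 of 12. Without the 2 libraries low in ribosomal protein RNA the median was −0.29, and 29 were below in all 10. UTP23, an rRNA-binding factor, was at 30.2, 107 and 145 FPKM in the lowest, median and highest mutant library, against 174 and 161 FPKM in WT, a log2 change of −0.86 ± 0.41 (SE). DHR2, a helicase of small-subunit rRNA processing, had a log2 change of −0.77 ± 0.41 (SE). UTP11, a processome subunit, had a log2 change of −0.60 ± 0.28 (SE) and lay at 74.6 to 173 FPKM in the mutants, against 189 and 187 in WT. Outside the lists, REX4, a putative exonuclease, had a change of −0.81 ± 0.41 (SE). KRR1, also of the processome, and TMA16, a protein found with ribosomes, were named after their values were seen and had changes of −0.65 ± 0.28 and −0.64 ± 0.25 (SE).

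RNA polymerase I makes the large rRNA precursor, and polymerase III makes 5S rRNA and tRNA. Of 24 subunit genes of these polymerases, 5 (20.8%, against 2.78% of all genes) were below in 12 of 12 libraries and 0 above. The median log2 change was −0.21. RPA12 was at 148, 298 and 359 FPKM in the lowest, median and highest mutant library, against 488 and 414 FPKM in WT. Its log2 change was −0.68 ± 0.27 (SE), and that of RPA34 was −0.55 ± 0.28 (SE). After scaling, 8 of the 24 were below in 12 of 12 (6.08% of all genes).

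Ribosomal protein genes also lay below WT, with NIT3Δ replicate 2 lowest in most of those named here. Of 135 cytosolic ribosomal protein genes, 32 (23.7%, against 2.78% of all genes) were below in 12 of 12 libraries and 0 above. For 117 the 4 strain means were below WT (13.9% of all genes). The median pooled log2 change of the list was −0.41, with a smallest adjusted p of 0.663 in limma. After scaling 40 were below in 12 of 12 (6.08% of all genes). Without the 2 libraries low in ribosomal protein RNA, 32 were below in all 10 and the median was −0.23. RPS31, which encodes ubiquitin fused to a small-subunit protein, was at 5014, 13980 and 18810 FPKM in the lowest, median and highest mutant library, against 21830 and 21940 FPKM in WT, a log2 change of −0.77 ± 0.38 (SE). RPS22A was at 4466 to 16490 FPKM in the mutants, against 18780 and 17960 in WT, and RPL42B at 3936 to 10770 FPKM in the mutants, against 11910 and 11700 in WT. Neither overlapped with WT. RPL26B did so, with 11 of 12 mutant libraries below and 1 above both WT libraries, at 2453 to 10710 FPKM in the mutants against 10180 and 9966 in WT. RPL18B, RPL9A and RPS28B had log2 changes of −0.94, −0.83 and −0.77 and were below in 12 of 12. RPL18B and RPL9A each have a near-identical copy, as do many genes of this list, so the split of reads within such a pair is uncertain.

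**Figure D2:**
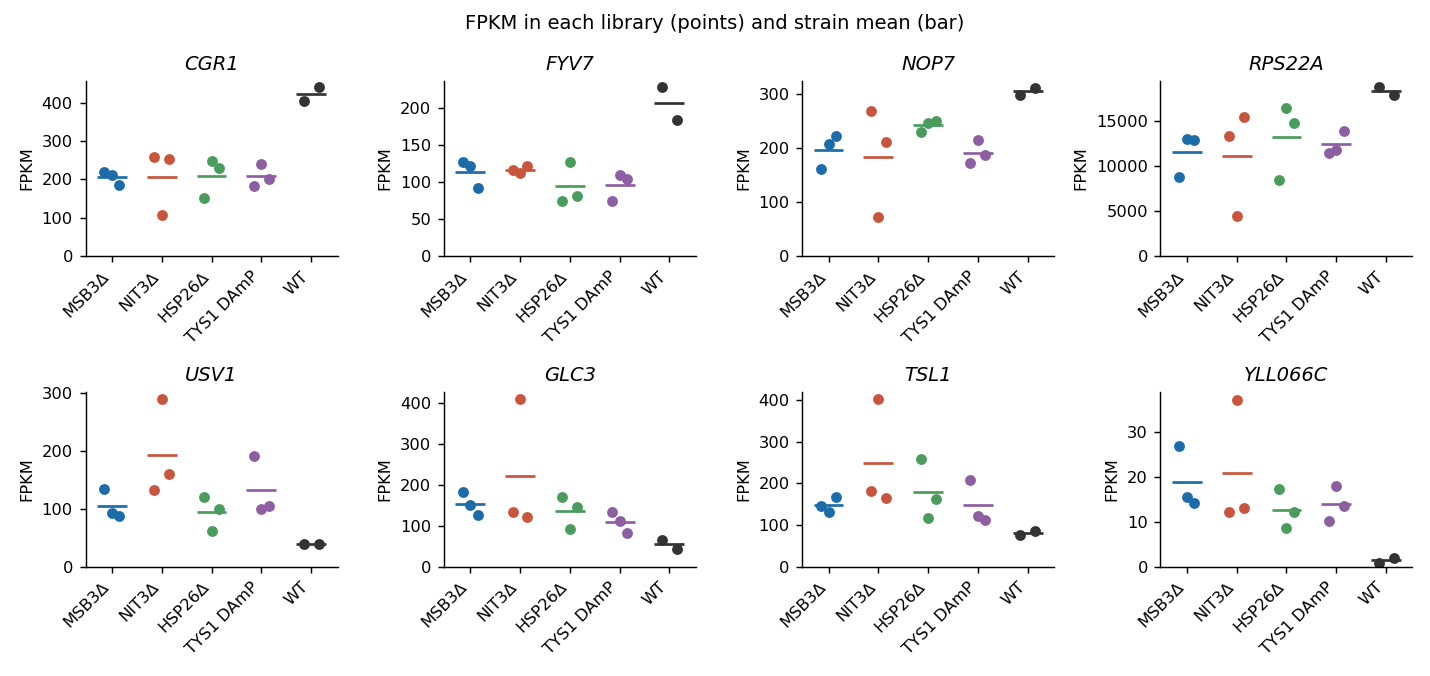
FPKM of 8 genes in each library (points, vertical axis from 0) with the mean of each strain (bar), for the 4 mutants and WT. The top row holds ribosome assembly and ribosomal protein genes, with CGR1 at most 259 FPKM in the mutants against at least 405 in WT, and the bottom row genes above WT, with USV1 at least 62.5 FPKM in the mutants against at most 40.3 in WT.

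Translation factors and tRNA synthetases were examined next. Of 43 translation factor genes 5 (11.6%, against 2.78% of all genes) were below in 12 of 12 libraries, 0 above, and the median log2 change was −0.14. After scaling 11 were below in 12 of 12 (6.08% of all genes), with a median of −0.30. TIF11, which encodes initiation factor eIF1A, was at 1479 to 2462 FPKM in the mutants, against 2850 and 2744 in WT, and TEF1, which encodes elongation factor eEF1A and has a near-identical copy, at 2332 to 6051 FPKM in the mutants, against 6343 and 6487 in WT. Of 18 cytosolic aminoacyl-tRNA synthetase genes SES1 (5.56%, against 2.78% of all genes), for seryl-tRNA synthetase, was below in 12 of 12 as deposited. Its log2 change was −0.23 ± 0.18 (SE), and 4 of the 18 were below after scaling (6.08% of all genes).

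Together 103 of the 159 genes below in 12 of 12 libraries belonged to a gene list, and 56 to none. Among those 56, 51.8% had rRNA, ribosome or nucleolus in their RefSeq product or note, against 12.7% of all genes tested, and 12.5% had tRNA, against 3.65%. Of the genes that follow, all but TRM11, HPT1 and TAR1 were named after their values were seen. NOP10, NHP2 and GAR1 encode core proteins of the particles that guide pseudouridylation of rRNA, and had log2 changes of −0.56, −0.44 and −0.43. NSR1, a nucleolin-like protein, was at 71.3 to 444 FPKM in the mutants, against 454 and 479 in WT. Among tRNA-modifying enzymes, TRM8 and TRM82, the subunits of 1 methyltransferase, had changes of −0.36 and −0.41, TRM1 of −0.44 and ELP3, the catalytic subunit of Elongator, of −0.47. TRM11, another tRNA methyltransferase, was at 11.6 to 85.3 FPKM in the mutants, against 92.8 and 86.8 in WT. HPT1, which salvages hypoxanthine and guanine, was at 106 to 1080 FPKM in the mutants, against 1132 and 1185 in WT. Enzymes of pyrimidine nucleotides were also among the 56, with FUR1 at a change of −0.51 and URA7 at −0.49. TAR1 was at 2.42 to 6.65 FPKM in the mutants, against 11.5 and 8.57 in WT, but its sequence is inside the ribosomal DNA repeat, which leaves its level uncertain.

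Most genes for storage carbohydrates lay above WT. Trehalose protects proteins and membranes under stress, and glycogen is the main glucose store. Of 21 trehalose and glycogen genes, 13 were above in 12 of 12 libraries and 0 below, against 7.86% and 2.78% of all genes. For 19 the 4 strain means were above WT (44.0% of all genes), and the median pooled log2 change was 0.92. PGM1, a phosphoglucomutase named after its values were seen, had 4 strain means below WT and a change of −0.29. After scaling 11 were above in 12 of 12 (4.21% of all genes) and PGM1 was below (6.08%). Without the 2 libraries low in ribosomal protein RNA the median of the list was 0.74, and 13 were above in all 10. TPS1, the trehalose-6-phosphate synthase, was at 275, 399 and 855 FPKM in the lowest, median and highest mutant library, against 196 and 214 FPKM in WT, a log2 change of 1.01 ± 0.34 (SE). TPS2, the phosphatase of the same complex, was at 138 to 368 FPKM in the mutants, against 92.0 and 111 in WT. TSL1, its regulatory subunit, was at 111 to 403 FPKM in the mutants, against 76.5 and 85.9 in WT. All 3 genes were non-overlapping between mutants and WT, and in each NIT3Δ replicate 2 was highest. In glycogen synthesis GLC3, the branching enzyme, was at 83.2, 133 and 409 FPKM in the lowest, median and highest mutant library, against 66.1 and 43.6 FPKM in WT, a log2 change of 1.38 ± 0.37 (SE). The glycogen synthase GSY2 had a change of 1.08 ± 0.35 (SE), the phosphoglucomutase PGM2 of 1.05 ± 0.37 (SE) and IGD1, an inhibitor of glycogen debranching, of 1.42 ± 0.47 (SE). No member passed the adjusted test in limma (smallest adjusted p = 0.663), and 12 had an unadjusted p under 0.05, each of them higher.

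Genes of the general stress response lay above WT. Of 52 stress genes, 26 (50.0%, against 7.86% of all genes) were above in 12 of 12 libraries and 0 below. All 4 strain means were above WT for 48 (44.0% of all genes), and the median log2 change was 0.97. After scaling 24 were above in 12 of 12 (4.21% of all genes). Without the 2 libraries low in ribosomal protein RNA the median was 0.75, and 26 were above in all 10. SPG4, also among the stationary-phase markers, had the largest pooled change of the list at 2.14 but was above in 9 of 12 libraries, at 7.84 to 1277 FPKM in the mutants, against 10.5 and 7.93 in WT. USV1, a zinc-finger transcription factor, was at 62.5, 114 and 290 FPKM in the lowest, median and highest mutant library, against 39.9 and 40.3 FPKM in WT, a log2 change of 1.58 ± 0.31 (SE) with an adjusted p of 0.266 in limma. FMP16, a mitochondrial protein, was at 59.1, 106 and 868 FPKM in the lowest, median and highest mutant library, against 35.4 and 25.6 FPKM in WT, a log2 change of 2.06 ± 0.57 (SE). RTN2, a reticulon of the endoplasmic reticulum, was at 48.9 to 470 FPKM in the mutants, against 26.6 and 25.3 in WT. Its gap of 0.85 on the log2 scale from the higher WT library to the lowest mutant library was second to that of YLL066C at 1.69. YGP1, a secreted glycoprotein, was at 279 to 1885 FPKM in the mutants, against 134 and 166 in WT. DDR48, a stress-induced protein, and DCS2, a regulator of mRNA decapping, were named after their values were seen, with DDR48 at 430 to 1332 FPKM in the mutants, against 288 and 301 in WT, and DCS2 at 90.3 to 447 FPKM in the mutants, against 60.8 and 52.2 in WT. FMP45 had a change of 1.81 ± 0.82 (SE) but was above in 11 of 12 libraries after scaling. Its lowest library lay close to WT, at 3.46 FPKM against 3.32 and 2.72 in WT. Chaperones, listed apart, did not lie above WT as a group. Of 31 chaperone genes 1 (3.23%, against 7.86% of all genes) was above in 12 of 12 libraries, and 0 after scaling. Their median log2 change was 0.01. The 4 strain means were above WT for 6 and below for 6, against 44.0% and 13.9% of all genes.

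Promoters of the stress genes carried another motif. The stress response element STRE (AGGGG on either strand, so CCCCT on the strand shown) is bound by Msn2 and Msn4. The promoter of FMP16, with the largest pooled change among genes of the trehalose and stress lists above in 12 of 12 libraries, is at chrIV:588380-588629 (minus strand, RefSeq R64) and is shown 5′ to 3′ on the gene's strand with the STRE match in capitals.
FMP16: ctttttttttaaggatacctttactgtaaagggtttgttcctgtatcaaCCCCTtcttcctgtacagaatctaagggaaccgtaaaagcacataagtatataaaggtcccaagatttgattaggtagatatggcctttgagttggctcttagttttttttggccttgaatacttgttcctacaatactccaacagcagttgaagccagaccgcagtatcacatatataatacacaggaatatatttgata
The match starts 201 bases before the start codon. The window of FMP45, second by change among them, holds none of the 3 motifs.

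The motifs were then counted in the same 250-base window of 5720 tested genes. PAC occurred in 65.4% of the promoters of the 159 genes below in 12 of 12 libraries and in 8.44% of the 450 above, against 16.9% of all. RRPE occurred in 49.1% and 2.89%, against 8.90% of all, and both motifs together in 39.6% of the genes below, against 4.25% of all. STRE occurred in 43.6% of the genes above and 8.18% of the genes below, against 18.9% of all. Among the 145 genes of the 2 assembly lists 89.0% held PAC and 76.6% RRPE, with PAC in 93.2% of the 59 assembly genes below in 12 of 12 and in 86.0% of the other 86. Of ribosomal protein promoters 10.4% held PAC. Outside the assembly and ribosomal protein lists, 68 genes were below in 12 of 12 and 66.2% of them held PAC. Outside the trehalose and stress lists, 411 genes were above in 12 of 12 and 41.6% of them held STRE. Windows of divergent neighbours can overlap, and a match is a description of letters, not of binding.

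**Figure D3:**
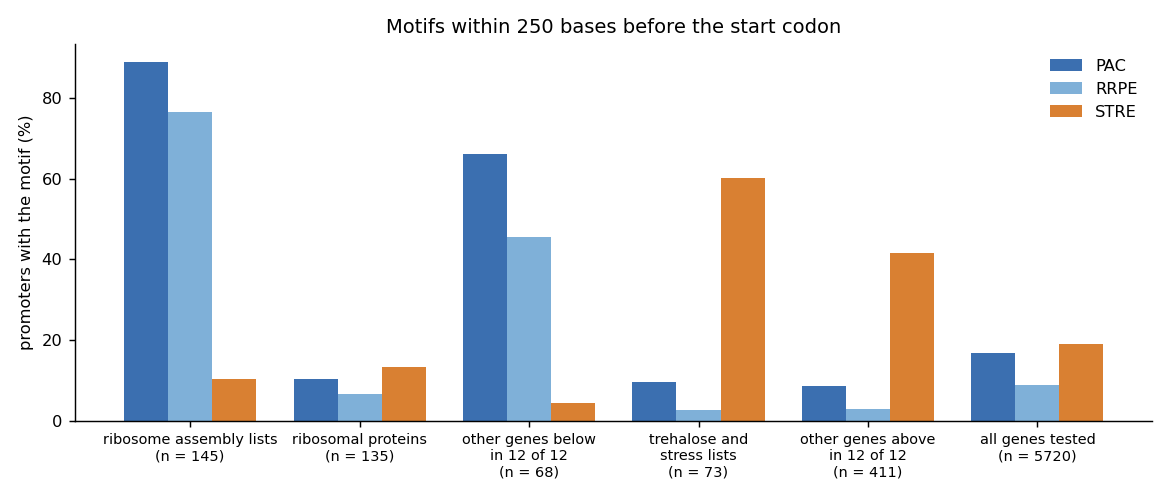
Share of promoters (percent, vertical axis) with a match to PAC, RRPE or STRE within 250 bases before the start codon, for gene lists, for other genes on 1 side of both WT libraries in 12 of 12 mutant libraries, and for all genes tested. PAC was in 89.0% of assembly promoters and 66.2% of other genes below, against 16.9% of all, and STRE in 60.3% of trehalose and stress promoters and 41.6% of other genes above, against 18.9% of all.

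Signalling and recycling functions were examined in the same way. The 29 genes of Ras, protein kinase A and TOR signalling had a median log2 change of 0.33. In 12 of 12 libraries 7 of them (24.1%, against 7.86% of all genes) were above and 0 below. They included PDE1, a phosphodiesterase that degrades cAMP, at 99.5 to 273 FPKM in the mutants, against 84.6 and 93.2 in WT, with a change of 0.61 ± 0.29 (SE). YAK1, a kinase that opposes growth, had a change of 0.78 ± 0.37 (SE) and MSN4, the stress activator, of 0.62 ± 0.27 (SE). After scaling 4 of the 29 were above in 12 of 12 and 1 below, against 4.21% and 6.08% of all genes. In the vacuole 4 of 8 hydrolases (against 7.86% of all genes) were above in 12 of 12 libraries, and 3 after scaling (4.21% of all genes). AMS1, an alpha-mannosidase, was at 15.9 to 68.3 FPKM in the mutants, against 9.86 and 10.8 in WT. The aminopeptidase APE1 had a log2 change of 0.92, and the proteinases PRB1 and PEP4 of 0.60 and 0.57.

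Of 34 autophagy genes, with a median log2 change of 0.41, 8 (23.5%, against 7.86% of all genes) were above in 12 of 12 libraries. After scaling 4 were (4.21% of all genes). ATG8, which coats the autophagosome membrane, was at 116 to 601 FPKM in the mutants, against 93.7 and 91.6 in WT. ATG19, a cargo receptor, had a change of 0.73, ATG33, of mitochondrial autophagy, of 0.81, and ATG29, outside the list and named after its values were seen, of 0.64. Of 35 proteasome genes 8 (22.9%, against 7.86% of all genes) were above in 12 of 12 as deposited. The median change was 0.28 as deposited and 0.11 after scaling, where 3 were above in 12 of 12 (4.21% of all genes). PRE8, PRE3 and PRE6, subunits of the core particle, were the 3, with changes of 0.48, 0.39 and 0.37. Of 21 genes of oxidative stress defence 5 (23.8%, against 7.86% of all genes) were above in 12 of 12, and 2 after scaling (4.21% of all genes). These 2 were ECM4 and GTT1, both of glutathione metabolism, with changes of 1.04 and 0.89. The median change of the 21 was 0.21, near the 0.16 of all genes, and 0.05 after scaling.

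Central carbon metabolism was mixed. Of 20 glycolysis and fermentation genes 2 were above in 12 of 12 libraries, under both scalings, and 0 below, a share near the 7.86% of all genes. GLK1, a glucokinase, was at 468, 724 and 1383 FPKM in the lowest, median and highest mutant library, against 337 and 368 FPKM in WT, a log2 change of 1.06 ± 0.31 (SE). TDH1, an isozyme of glyceraldehyde-3-phosphate dehydrogenase, was at 2418 to 5687 FPKM in the mutants, against 1680 and 1767 in WT. Of 16 tested hexose transporters and sensors, HXT7 and HXT4 (12.5%, against 7.86% of all genes) were above in 12 of 12, with changes of 0.95 and 0.89. After scaling 1 of the 16 was above in 12 of 12 (4.21% of all genes). HXT7 has a near-identical copy, so its level is uncertain. In the tricarboxylic acid cycle, CIT1, the citrate synthase, was the 1 of 18 genes (5.56%, against 7.86% of all genes) above in 12 of 12, at 145 to 644 FPKM in the mutants against 124 and 129 in WT, and ACO1, the aconitase, was above in 11 of 12. Genes of the respiratory chain and ATP synthase had medians of 0.75 in NIT3Δ, 0.46 in MSB3Δ, −0.06 in TYS1 DAmP and −0.08 in HSP26Δ, but the F test called 0 of them. By library, relative to all genes, NIT3Δ replicate 2 and MSB3Δ replicate 1 were at 0.93 and 0.68, while NIT3Δ replicate 1 was at 0.06 and MSB3Δ replicate 3 at −0.06, and without those first 2 libraries the pooled median was 0.09 in place of 0.28. Of these 39 genes 2 (5.13%, against 7.86% of all genes) were above in 12 of 12, HAP4, an activator of respiratory genes, and STF1, a regulator of ATP synthase, with changes of 1.06 and 1.05.

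**Figure D4:**
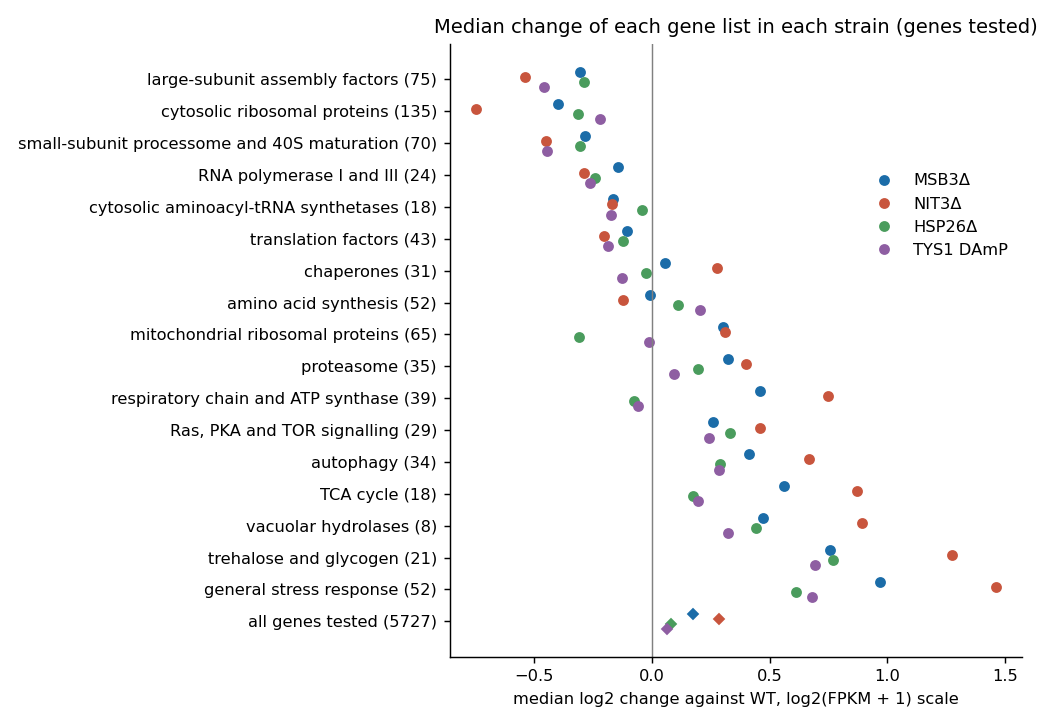
Median log2 change against WT (horizontal axis, log2(FPKM + 1) scale) of each gene list in MSB3Δ, NIT3Δ, HSP26Δ and TYS1 DAmP (coloured points), with the number of genes tested, and of all genes tested (diamonds). The 6 lists of ribosome production and translation lay below 0 in all 4 strains, and the stress list lay between 0.61 in HSP26Δ and 1.46 in NIT3Δ.

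The size of the shared changes was compared between strains and libraries. Among the 450 genes above in 12 of 12 the median log2 change was 0.74 for NIT3Δ, 0.51 for MSB3Δ, 0.47 for HSP26Δ and 0.46 for TYS1 DAmP. Among the 159 below it was −0.66 for NIT3Δ, −0.49 for TYS1 DAmP, −0.40 for HSP26Δ and −0.39 for MSB3Δ. The largest strain change fell in NIT3Δ for 344 of the 450 and 114 of the 159, and without NIT3Δ replicate 2 and MSB3Δ replicate 1 for 124 and 13 of them, so the lead of NIT3Δ rested on these libraries. NIT3Δ replicate 2 alone held the highest value for 80% of the 450 and the lowest for 74.2% of the 159. After the median of all genes was subtracted in each library, the median of the stress list was 0.34 to 1.97 in the mutants, against 0.03 and −0.03 in WT, and that of the trehalose and glycogen list 0.34 to 1.56, against 0.03 and −0.03 in WT. The large-subunit assembly list ranged from −1.73 to −0.17 in the mutants, against −0.04 and 0.04 in WT, and the small-subunit list from −1.53 to −0.22, against −0.02 and 0.02 in WT. All 12 mutant libraries lay outside both WT libraries for these 4 lists, and 11 of 12 for ribosomal proteins, with TYS1 DAmP replicate 3 at −0.02 inside the range of WT at 0.05 and −0.05.

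**Figure D5:**
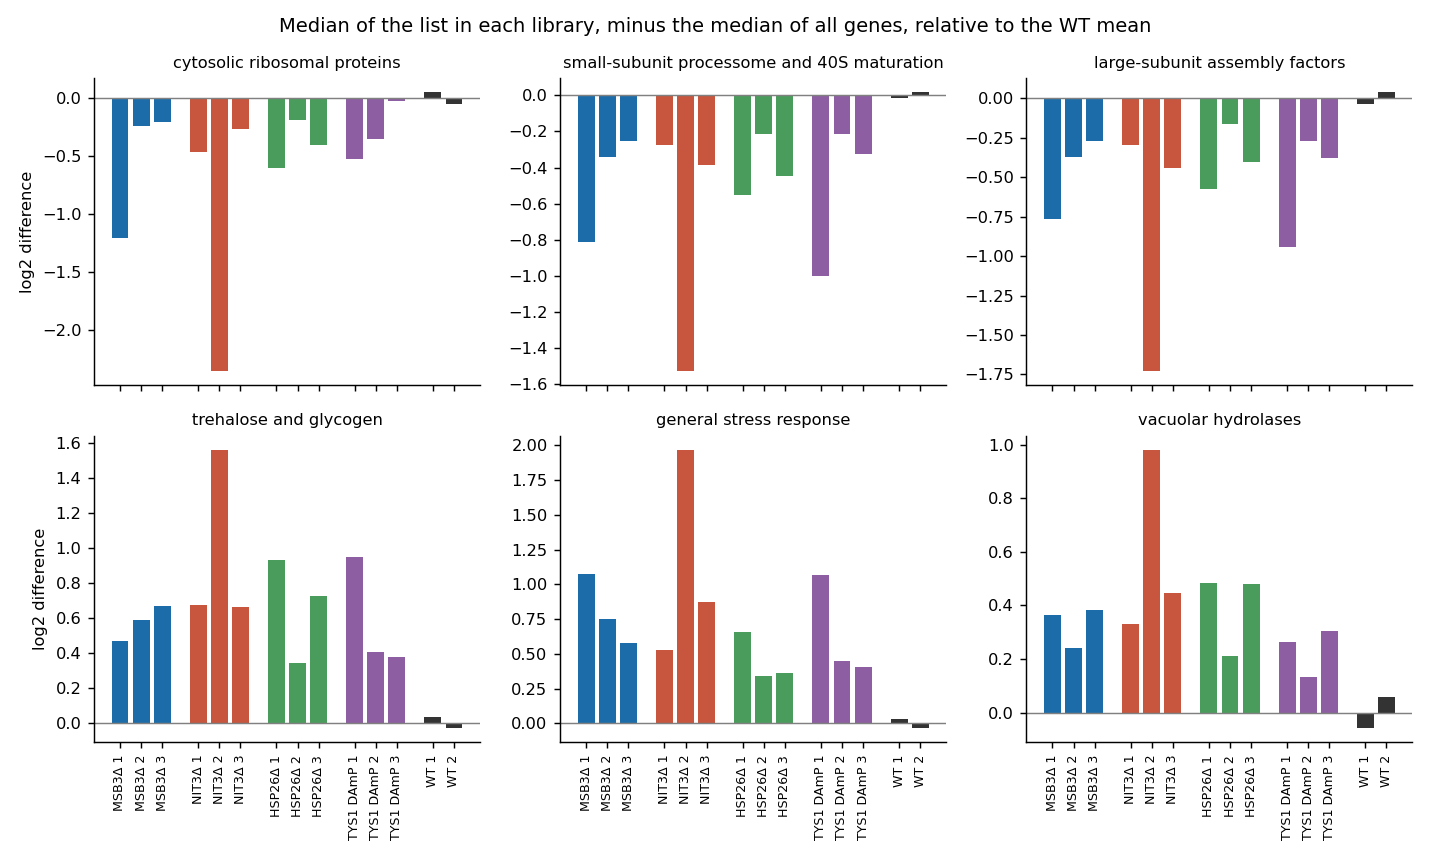
Median of 6 gene lists in each library after subtracting the median of all genes, relative to the WT mean (vertical axis, log2(FPKM + 1) scale, each panel with its own range), for the 12 mutant libraries and the 2 WT libraries. NIT3Δ replicate 2 was the most extreme library in every panel, with the stress list at 1.97 and ribosomal proteins at −2.35.

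Whether the strains differed from each other was tested without WT in the contrast, by limma's moderated F test over the 4 mutant groups. This called 9 of the 5727 genes (0.157%) at an adjusted p under 0.05. The targeted genes MSB3, NIT3, HSP26 and TYS1 were 4 of the 9, and the others were CYB5, ATF2, ERG25, ERG3 and TIR3, of which ATF2, ERG25 and ERG3 were named after their values were seen. Only TIR3 was also among the 609 genes on 1 side of both WT libraries in 12 of 12 libraries. TIR3, a cell wall mannoprotein known from cold and low oxygen, averaged 1293 ± 1242 FPKM in TYS1 DAmP, 129 ± 76.9 in HSP26Δ, 86.2 ± 27.2 in NIT3Δ and 104 ± 33.0 in MSB3Δ (SD, n = 3 each), against 51.1 ± 2.52 in WT (SD, n = 2), with an adjusted p of 0.0369 in the F test of limma. Its relative TIR1 was at 2003 to 4050 FPKM in TYS1 DAmP and 107 to 874 in the other mutants, against 95.8 and 98.2 in WT, with an adjusted p of 0.0765 in the F test. Of 8 TIR and DAN wall mannoproteins 4 were above WT in 12 of 12 libraries (7.86% of all genes) and 2 after scaling (4.21%). All 8 had 4 strain means above WT (44.0% of all genes).

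The other genes that differed among strains were of sterol and membrane metabolism and did not lie on 1 side of WT in all mutants. ERG3, a sterol desaturase, averaged 2015 ± 331 FPKM in TYS1 DAmP, 790 ± 191 in HSP26Δ, 289 ± 129 in NIT3Δ and 461 ± 302 in MSB3Δ (SD, n = 3 each), against 415 ± 50.8 in WT (SD, n = 2). ERG25, a sterol methyl oxidase, averaged 1277 ± 180 FPKM in TYS1 DAmP and 321 ± 55.5 in NIT3Δ (SD, n = 3 each), against 369 ± 42.1 in WT (SD, n = 2). CYB5, cytochrome b5, which gives electrons to sterol and lipid enzymes, averaged 327 ± 47.0 FPKM in TYS1 DAmP and 94.5 ± 15.3 in NIT3Δ (SD, n = 3 each), against 145 ± 10.7 in WT (SD, n = 2). ATF2, an acetyltransferase that acts on sterols, averaged 110 ± 21.4 FPKM in TYS1 DAmP and 14.9 ± 3.64 in NIT3Δ (SD, n = 3 each), against 21.3 ± 3.44 in WT (SD, n = 2). In all 4 genes the mean of TYS1 DAmP was highest and that of NIT3Δ lowest.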

How the data were processed

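The authors deposited FPKM values for each gene and library, rounded to 2 decimals, from reads of a BGISEQ-500. The submitters' processing notes name HISAT2 2.1.0, Bowtie2, RSEM 1.3.1, DESeq2 1.4.5 and genome build R64, without roles. The annotation and strandedness are not given in the sources used here. Reads per gene are unknown, and relative depth came from 54 short genes, with 95% of 280 values within 0.15 of a whole read. Of 5886 gene names, 5877 matched RefSeq R64.

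Models used limma 3.58.1 (R 4.3.3) with trend and robust moderation on 5 groups, and pseudocount 1. Figures used matplotlib. Procedures were tested on simulated data. Alternatives were pseudocount 0.1, a stricter or absent filter on low genes (10 FPKM or none), scaling by median ratios, other variance models, array weights, 2 groups, a replicate block, and leaving out libraries or strains. Median-ratio scaling without the 2 libraries low in ribosomal protein RNA was added after seeing the data.

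Members and gene lists, written from general knowledge, were chosen with earlier results of these data known. Named genes were the 4 perturbed genes and 8 genes of the study, the 12 largest and 12 smallest changes among genes outside WT in 12 of 12 libraries, the 6 smallest p, up to 4 members of each list by libraries outside WT and then size, and the 5 smallest F test p. The 8 genes of the study had been named there from these same libraries. Promoters were those of the 2 most negative changes in the assembly lists and the 2 most positive in the trehalose and stress lists, among genes outside WT in 12 of 12 libraries.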

Additional observations from a re-analysis of the deposited data

Results flagged for a closer look

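The effects of the 4 mutants against WT differed from each other for 5 genes besides the targeted ones, by limma's F test among the mutant groups. The adjusted p was 0.00337 for CYB5, 0.0228 for ATF2, 0.0228 for ERG25, 0.0368 for ERG3 and 0.0369 for TIR3, and in each TYS1 DAmP was the highest strain. Without TYS1 DAmP the adjusted p was 0.837 for TIR3 and 0.832 for each of the others. With the replicate block it was 0.0646 for ATF2, 0.0694 for ERG25 and 0.0646 for ERG3, and after median-ratio scaling 0.0598 for ATF2 and 0.111 for ERG3. Without NIT3Δ it was 0.226 for ATF2 and 0.180 for each of ERG25, ERG3 and TIR3, and without HSP26Δ 0.0628 for ERG3 and 0.0526 for TIR3. Without the 2 libraries low in ribosomal protein RNA it was 0.0525 for ERG25 and 0.193 for TIR3. With 1 library left out at a time, that of CYB5 passed 0.05 only without TYS1 DAmP replicate 2, at 0.0526, while those of TIR3, ERG3, ATF2 and ERG25 reached 0.139, 0.238, 0.164 and 0.164.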

How the results depend on the processing

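The pooled changes of the 104 genes recomputed, which leave out MSB3, HSP26, TYS1, CYB5, ATF2, ERG25, ERG3, SPG4, PGM1 and the other marker genes, kept their sign under every alternative run. That of HSP26 was 0.00 as deposited and −0.17 after scaling. Many of the 104 genes were chosen because every mutant library lay on 1 side of both WT libraries. For such genes, leaving out a library or a strain cannot change the sign, so those runs do not test it. The 2 calls by limma depended on the setting. The count of genes called higher, 1, was 0 with the replicate block, without MSB3Δ, without HSP26Δ and without TYS1 DAmP, with 229 to 578 higher genes at an unadjusted p under 0.05. It was 0 to 2 with 1 library left out, at 0 without either WT replicate, where 67 and 78 higher genes had an unadjusted p under 0.05, and at 2 without NIT3Δ replicate 2. The count called lower, 1, was 0 without NIT3Δ and with the mutant libraries as 1 group (limma, 106 and 60 lower genes unadjusted), and 1 to 2 with 1 library left out. Both were 2 without the 2 libraries low in ribosomal protein RNA, with or without scaling, adding ISF1 or FMP16 and the Ty gene YJR028W. Array weights, whose estimation did not converge, called 799 higher, 192 lower and 2470 among mutants. The study's cut-offs, put on the pooled change with the unadjusted p of limma, gave 191 and 34.

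Genes above and below in all mutant libraries were 241 and 348 with median-ratio scaling, and 285 and 350 with scaling and without the 2 low libraries. As deposited they were 454 to 946 and 160 to 285 with 1 library left out, and 708 above without TYS1 DAmP. These last counts follow a looser rule, so they could only stay or rise for genes still tested. Shared direction of strain means gave 1413 up and 1579 down with scaling and 1431 and 1551 with scaling and without the 2 libraries, and 2098 to 2665 up and 684 to 892 down with 1 library left out. The 9 genes that differ among mutants were 4 to 15 with 1 library left out, 4 without NIT3Δ and 3 without TYS1 DAmP. They were 15 without MSB3Δ replicate 3, 4 without TYS1 DAmP replicate 2 and 5 without MSB3Δ replicate 2, NIT3Δ replicate 3, TYS1 DAmP replicate 1 or either WT replicate. The cause of these shifts was not tested.

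Replicate numbers were not taken to pair the samples, since the labels tie no number to a shared culture or day and 11 of 26 correlations of same-numbered deviations passed 0.1 (range −0.77 to 0.44), although 8 of 14 libraries correlated best with their own number. The replicate block called 0 higher and 1 lower and 6 genes among mutants. Reads per gene are unknown, which limits low genes, and 2 WT libraries limit every comparison.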

Other observations

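Retrotransposon genes were counted by family, and none passed the adjusted test in limma. Of 42 tested genes that the annotation gives as Ty gag-pol, a family chosen after its values were seen, 11 were above in 12 of 12 libraries as deposited and 0 below. The shares of all genes were 7.86% and 2.78%. For 36 of the 42 the 4 strain means were above WT (44.0% of all genes), and the median pooled log2 change was 0.54. After median-ratio scaling 4 were above in 12 of 12 and 1 below, against 4.21% and 6.08% of all genes. YOR142W-B on chromosome XV was at 144 to 418 FPKM in the mutants, against 105 and 93.8 in WT, a change of 1.21 ± 0.24 (SE) with an adjusted p of 0.266 in limma. YDR210C-D, named after its values were seen, had a change of 0.89. The 27 shorter Ty gag genes had a median of 0.05, with 1 above and 1 below in 12 of 12. The gene below was YJR028W, at 6.74 to 34.2 FPKM in the mutants, against 36.0 and 35.4 in WT. Ty copies are near-identical, so the assignment of reads to single copies is uncertain.

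Of 10 histone genes 6 had 4 strain means below WT and 1 had 4 above, against 13.9% and 44.0% of all genes. In 12 of 12 libraries 0 were below as deposited and 2 after scaling (6.08% of all genes), and the median change was −0.28. HTA2, for histone H2A, was at 1025 to 2131 FPKM in the mutants, against 2555 and 2118 in WT. Of 20 purine and one-carbon genes 9 had 4 strain means below WT (13.9% of all genes). The median of the 20 was −0.40, or −0.19 without the 2 libraries low in ribosomal protein RNA. By library, relative to all genes, it ran between −2.04 in NIT3Δ replicate 2 and 0.16 in MSB3Δ replicate 3. In 52 amino acid synthesis genes, 65 mitochondrial ribosomal protein genes and 28 iron genes, 0 were outside WT in 12 of 12 libraries as deposited, with medians of 0.07, 0.06 and 0.11 that turned to −0.10, −0.11 and −0.05 after scaling. Without the 2 libraries low in ribosomal protein RNA the medians were 0.06, −0.01 and 0.20.

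Mating-type genes marked the same libraries as the stationary-phase markers. The 4 MATa-specific genes measured summed to 1167 FPKM in MSB3Δ replicate 1 and 2054 in NIT3Δ replicate 2, and to 152 to 521 in the other 10 mutant libraries, against 307 and 288 in WT. AGA2, an agglutinin subunit, was at 1116 FPKM in NIT3Δ replicate 2, against 125 and 131 in WT. The 4 MATalpha-specific genes summed to at most 57.1 FPKM in the mutants, against 27.8 and 28.1 in WT, and 6 sporulation genes to 49.9 to 75.3, against 55.6 and 55.8 in WT.

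Several named genes outside the lists were above WT in 12 of 12 libraries, of which all but RGI1 and ISF1 were named after their values were seen. PYC1, a pyruvate carboxylase, had a log2 change of 1.14, ALD4, a mitochondrial aldehyde dehydrogenase, of 1.05 and GUT2, a mitochondrial glycerol-3-phosphate dehydrogenase, of 0.88. GPG1 had a change of 1.45, YJR115W of 1.53, RGI1 of 1.54, ISF1 of 1.59 and LDS2 of 1.08. Of the 355 genes above in 12 of 12 and in no list, 20.6% had stress in their RefSeq product or note, against 14.7% of all genes tested.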
